A study of Homo sapiens with 6 samples.

Results

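The members are 37 genes of glycolysis and the hypoxia response, chosen by gene symbol from the 26255 symbols measured. They comprise 19 glycolytic enzymes, 4 transporters of glucose and lactate, and 14 hypoxia genes, and the transporters and hypoxia genes together make the 18 members that are set beside the enzymes. RNA was sequenced from BxPC-3, an established cell line from a human pancreatic adenocarcinoma, in 3 groups of 2 libraries: untreated cells (Parent), cells transfected with a negative control RNA (NC-1), and cells transfected with miR-4711-5p, a microRNA given as a synthetic duplex, with a treatment time of 36 h. All 6 libraries come from the same line and are bulk RNA, so less RNA per cell and fewer cells of a kind cannot be told apart. The labels do not say whether the libraries of a group came from separate cultures, so p-values measure only the spread between these libraries, which may be technical.

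Glycolysis converts glucose to pyruvate in the cytosol and lactate dehydrogenase turns pyruvate into lactate, with glucose taken up by SLC2A transporters and lactate released by SLC16A transporters. Hypoxia-inducible factor (HIF) is a transcription factor whose alpha subunit is hydroxylated and degraded when oxygen is present. When oxygen falls, HIF binds the short cores ACGTG and GCGTG in promoters and enhancers and raises genes for glucose uptake, most glycolytic enzymes, angiogenesis, pH control and its own hydroxylases. Pancreatic carcinomas are known for poor blood supply and high glucose use.

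A microRNA pairs with the 3′ UTR of mRNAs mainly through its seed, bases 2 to 8. The mature strand is shown with the seed in capitals, because sites for it were searched in every member (sequence from RefSeq, GRCh38.p14, chr1:59733269-59733291, minus strand).
miR-4711-5p: uGCAUCAGgccagaagacaugag

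Of the 34 members tested, 5 (14.7%) had a site of at least 7 bases in their longest annotated 3′ UTR (the 7mer-m8 site CTGATGC, which pairs with the whole seed, or the 7mer-A1 site with sequence TGATGCA, read on the transcribed strand, with the 8mer site holding both), against 18.5% of 10593 tested genes that matched the annotation by symbol. They were *SLC2A1*, *LDHA*, *PGK1*, *EGLN3* and *PDK1*. The sites of the first 4 are shown in GRCh37 with the match in capitals, because these members changed against Parent in both directions. The capitals lie at chr1:43391098-43391104 (minus strand) for *SLC2A1*, chr11:18429010-18429016 (plus strand) for *LDHA*, chrX:77383081-77383087 (plus strand) for *PGK1* and chr14:34418996-34419002 (minus strand) for *EGLN3*.
SLC2A1: agtacagtgctTGATGCAcagcaggcact
LDHA: acagctatatcCTGATGCtggatggtatt
PGK1: ggttccagtggCTGATGCttttccaatgt
EGLN3: aaaattctctcCTGATGCtgagccctgca

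*PDK1* had 4 sites in a 3′ UTR of 12700 bases. The *SLC2A1* site begins at base 1608 of a 3′ UTR of 1688 bases. That site, of the 7mer-A1 type, is in 1 of 4 coding transcripts, and the *PGK1* site is in 1 of 2, in each case the one marked canonical. The *EGLN3* site is in 1 of 3 coding transcripts and not in the one marked canonical, whereas the *LDHA* site is in 5 of 5. Counting any annotated 3′ UTR, 6 tested members (17.6%) had a site, against 20.6% of tested genes. The further member was *PFKFB3*. *NDRG1*, *DDIT4*, *ADM* and *ENO2*, described below with the largest changes among the tested members, had none in their annotated 3′ UTRs. A match is a description of letters, and binding was not measured here.

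Values are FPKM, fragments assigned to a gene, normalized for exon length and library size. Differences were tested with limma on log2(FPKM + 1), so fold changes of low genes are understated, and a gene is called higher or lower where the Benjamini-Hochberg adjusted p over all 12040 genes tested is under 0.05. Genes had to average at least 1 FPKM, and 34 of 37 members did: all 19 enzymes and 15 of the other 18. The relative depth, read from the steps between the lowest values, was between 0.751 and 1.21 times that of the first Parent library, and the number of reads is unknown. The FPKM of all symbols summed to 550772 and 543074 in Parent, 515688 and 515348 in NC-1, and 493145 and 499659 in the miR-4711-5p libraries. Rescaling the libraries to a common total moved the median log2 fold change of all genes from -0.01 to 0.11 against Parent.

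The largest changes with miR-4711-5p against both controls among the 34 tested members were falls of *SLC2A1*, *NDRG1* and *DDIT4* and a rise of *ADM*, and *CA9*, below the filter, is described separately. Of the 12 enzymes that fell against Parent, 7 also fell with NC-1, and *ENO2* was the enzyme with the largest rise against Parent. The share of all genes called lower than Parent in both transfected groups was not counted. Against Parent, 3 of 19 enzymes were higher and 12 lower, where 18.7% of all genes tested were higher and 24.7% lower. The other members had 6 of 15 higher and 3 lower. Against NC-1, 5 enzymes were higher and 5 lower, and 4 of the other members were higher and 4 lower, where 18.4% of all genes were higher and 21.2% lower. Between NC-1 and Parent, no enzyme was higher by limma (also 0 at an unadjusted p under 0.05) and 9 were lower, and of the other members 2 were higher and 2 lower, where 12.1% of all genes were higher and 15.1% lower. The comparisons with Parent share the Parent libraries, and those with miR-4711-5p share the miR-4711-5p libraries.

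After rescaling to a common total the split of enzymes against Parent became 7 higher and 5 lower, against NC-1 7 and 3, and between NC-1 and Parent 1 and 8. The other members became 7 higher and 3 lower, 6 and 3, and 3 and 1 in the same order. All genes went from 2255 higher and 2975 lower to 4014 and 1775 against Parent, from 2214 and 2549 to 2925 and 2083 against NC-1, and from 1456 and 1823 to 2325 and 1000 between NC-1 and Parent. Relative to the median of all genes, the median enzyme stood at -0.22 against Parent on the deposited scale and at -0.20 after rescaling, and the median of the other members at 0.17 and 0.19. These medians are log2 differences given as a description, with no test.

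**Figure D1:**
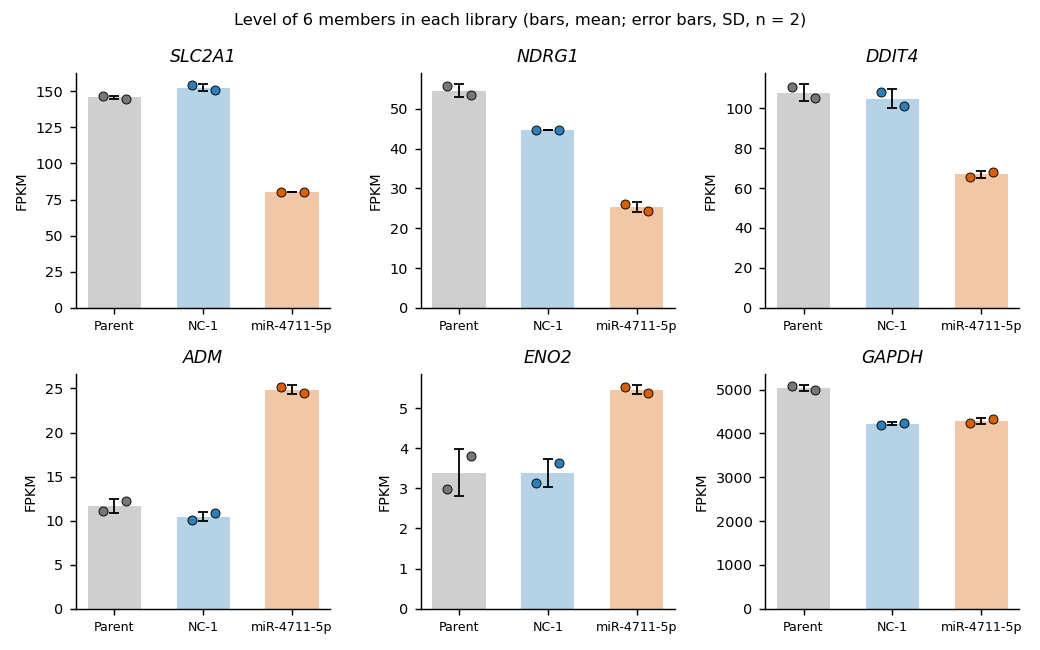
FPKM of 6 members in each group (bars, mean; error bars, SD, n = 2 libraries; points, libraries). *SLC2A1* at about 80 FPKM, *NDRG1* and *DDIT4* are lower in both miR-4711-5p libraries than in the 4 control libraries and *ADM* and *ENO2* are higher, while *GAPDH* is lower in both transfected groups than in Parent.

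*SLC2A1* encodes GLUT1, the basal glucose transporter and a classical HIF target. Its level was 147 and 145 FPKM in Parent, 154 and 151 FPKM in NC-1, and 80.1 and 79.9 FPKM with miR-4711-5p. The miR-4711-5p libraries lay far below the other 4, which were close to each other. The mean was 0.549 times that of Parent (limma log2 fold change -0.86 ± 0.04 SE, adjusted p = 9.3e-06) and 0.525 times that of NC-1 (-0.92 ± 0.04, adjusted p = 8.79e-06). NC-1 and Parent differed by 0.06 ± 0.04 (adjusted p = 0.262), which became a call after rescaling to a common total (adjusted p = 0.0285).

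The other transporters changed less or not detectably. *SLC2A3*, the neuronal-type glucose transporter GLUT3, is listed at 0 in all 6 libraries. *SLC16A1* (MCT1), a carrier of lactate and pyruvate, was at 36.5 and 37.5 FPKM in Parent, 36 and 34.2 FPKM in NC-1, and 38.3 and 36.5 FPKM with miR-4711-5p, with no call in any comparison. *SLC16A3* (MCT4), the lactate exporter of glycolytic cells, was at 147 and 134 FPKM, 125 and 122 FPKM, and 139.9 and 134 FPKM in the same order, lowest in NC-1. *SLC16A3* was called lower in NC-1 than in Parent (log2 fold change -0.18, limma adjusted p = 0.0428), but this was lost on leaving out any library except the second Parent library (adjusted p up to 0.177). Leaving out either Parent library gave a call of miR-4711-5p above NC-1 (0.15 on all libraries, adjusted p = 0.06, and as low as 0.038).

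*NDRG1*, a stress- and hypoxia-induced gene known as a suppressor of metastasis, was at 55.7 and 53.5 FPKM in Parent, 44.7 and 44.6 FPKM in NC-1, and 26.2 and 24.4 FPKM with miR-4711-5p. The groups did not overlap, and NC-1 lay between the others. The log2 fold changes with miR-4711-5p were -1.08 ± 0.05 against Parent and -0.80 ± 0.05 against NC-1 (limma adjusted p = 1.11e-05 and 4.51e-05). NC-1 was lower than Parent by a log2 fold change of -0.28 (adjusted p = 0.00889, and 0.0541 without the first Parent library).

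*DDIT4* (REDD1), an inhibitor of mTORC1 that is induced by hypoxia and other stresses, was at 111 and 105 FPKM in Parent, 108 and 101 FPKM in NC-1, and 65.7 and 68.1 FPKM with miR-4711-5p. Parent and NC-1 overlapped, and both miR-4711-5p libraries lay below them. The log2 fold change was -0.68 ± 0.05 against Parent and -0.64 ± 0.05 against NC-1 (limma adjusted p = 8.16e-05 and 0.000132).

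*ADM*, the vasodilator peptide adrenomedullin, moved the other way. It was at 11.1 and 12.2 FPKM in Parent, 10.1 and 10.8 FPKM in NC-1, and 25.2 and 24.5 FPKM with miR-4711-5p. Both miR-4711-5p libraries lay above the other 4, with a mean 2.12 times that of Parent and 2.38 times that of NC-1 (log2 fold changes 1.03 ± 0.06 and 1.17 ± 0.06, limma adjusted p = 3.44e-05 and 2.39e-05). The calls of *SLC2A1*, *NDRG1*, *DDIT4*, *ADM* and *ENO2* for miR-4711-5p against both controls held with each library left out and under each other setting in which the gene was tested. *ENO2* averages 4.08 FPKM and was not tested where a mean of at least 5 FPKM was required.

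*CA9*, carbonic anhydrase IX and a sensitive marker of HIF activity, was too low for the filter. It was at 0.356 and 0.255 FPKM in Parent, 0.592 and 0.311 FPKM in NC-1, and 1.69 and 1.25 FPKM with miR-4711-5p. Both miR-4711-5p libraries were above the other 4, at low levels. In the fit without a filter, its log2 fold change was 0.92 against Parent and 0.77 against NC-1 (limma adjusted p = 0.00837 and 0.0155). *BNIP3*, a mitochondrial protein of mitophagy and a strong HIF target in many cells, was between 0.049 and 0.224 FPKM in all 6 libraries and was not called in that fit (0.024 and -0.032, adjusted p = 0.878 and 0.827).

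*VEGFA*, the main angiogenic factor under HIF, was at 69.1 and 67.8 FPKM in Parent, 93.7 and 95.2 FPKM in NC-1, and 99.4 and 95.9 FPKM with miR-4711-5p. Both transfected groups were above Parent, by log2 fold changes of 0.51 with miR-4711-5p and 0.46 with NC-1 (limma adjusted p = 0.000129 and 0.00109). miR-4711-5p and NC-1 differed by 0.05 ± 0.04 (adjusted p = 0.414).

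*HIF1A*, the alpha subunit that is regulated mainly through protein stability, was at 182 and 190.3 FPKM in Parent, 173 and 180 FPKM in NC-1, and 202 and 213 FPKM with miR-4711-5p. Both miR-4711-5p libraries were the highest, by log2 fold changes of 0.16 against Parent and 0.23 against NC-1 (limma adjusted p = 0.0355 and 0.00788). The call against Parent was lost without any 1 of the Parent or miR-4711-5p libraries (adjusted p up to 0.192), and that against NC-1 without the second miR-4711-5p library (adjusted p = 0.0644). HIF protein was not measured in these files.

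Among the genes of oxygen sensing and matrix synthesis, *P4HA1*, a subunit of the collagen prolyl hydroxylase, rose from 23.2 and 22.7 FPKM in Parent and 23.6 and 25.8 FPKM in NC-1 to 30.7 and 30.5 FPKM with miR-4711-5p. Its log2 fold changes were 0.40 and 0.30 (limma adjusted p = 0.00132 and 0.00528). Its relative *P4HA2* was at 21.9 and 21.2 FPKM, 24.5 and 21.9 FPKM, and 22 and 21.6 FPKM in the same order, with overlapping groups and no call. *EGLN3*, a HIF hydroxylase that HIF itself induces, ranged from 5.74 to 8.16 FPKM and rose against Parent (0.35, adjusted p = 0.0074) and NC-1 (0.22, adjusted p = 0.0487). The *EGLN3* call against Parent was lost without the first miR-4711-5p library (adjusted p = 0.0599), and that against NC-1 without any 1 of the NC-1 or miR-4711-5p libraries (adjusted p up to 0.22).

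*KDM3A*, a HIF-induced histone demethylase, ranged from 9.18 to 12.1 FPKM and rose against Parent (0.30, limma adjusted p = 0.0139) but was not called against NC-1 (0.17, adjusted p = 0.09). That call was lost without either Parent library or the second miR-4711-5p library (adjusted p up to 0.0938). *BNIP3L*, a mitophagy receptor, ranged from 18.7 to 23.6 FPKM and was highest in NC-1. It was called lower with miR-4711-5p than with NC-1 (-0.21, adjusted p = 0.0345) and higher in NC-1 than in Parent (0.22, adjusted p = 0.0396). The first of these calls was lost without any 1 of the NC-1 or miR-4711-5p libraries (adjusted p up to 0.17) and the second without any library except the second Parent library (adjusted p up to 0.162). *PDK1*, which inhibits pyruvate dehydrogenase, was between 3.39 and 4.33 FPKM and *ANKRD37*, a small HIF target, between 0.940 and 2.2 FPKM, and neither was called.

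**Figure D2:**
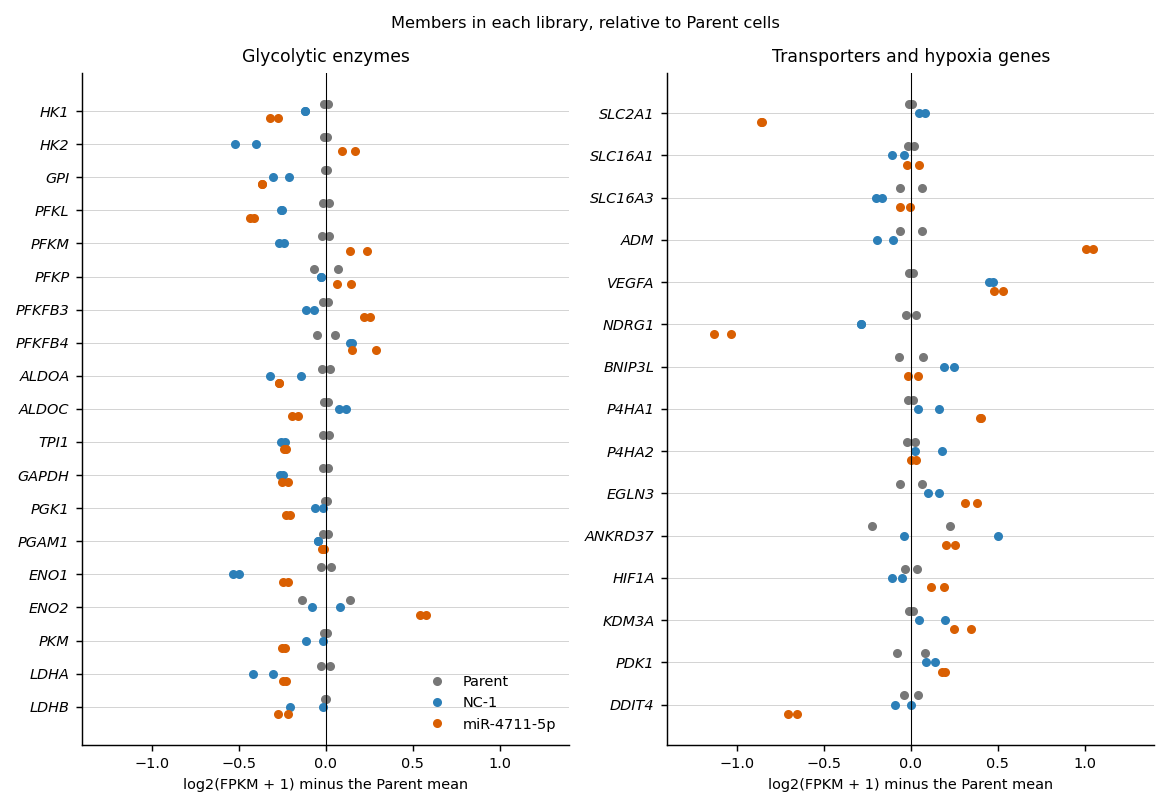
log2(FPKM + 1) of the 34 tested members in each library, minus the mean of the 2 Parent libraries (points, libraries; left, 19 enzymes in pathway order; right, 15 transporters and hypoxia genes). *SLC2A1*, *NDRG1* and *DDIT4* stand apart to the left and *ADM* and *ENO2* to the right with miR-4711-5p, and *ALDOA*, *TPI1* and *GAPDH* lie to the left in both transfected groups.

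The enzymes of glycolysis spanned a wide range of levels. *GAPDH*, which makes 1,3-bisphosphoglycerate, was the highest, between 4199 and 5079 FPKM, and the minor isozymes *PFKFB4* and *ENO2* were the lowest, between 1.99 and 5.54 FPKM. The 19 enzymes together took 2.63% and 2.61% of all FPKM in Parent, 2.39% and 2.37% in NC-1, and 2.46% in each miR-4711-5p library. This share does not depend on the scale of a library, and it was lower in both transfected groups than in Parent, with miR-4711-5p above NC-1. The summed FPKM of the enzymes overlapped between the transfected groups, at 12299.5 and 12201.5 in NC-1 and 12147.3 and 12295 with miR-4711-5p. The total over all symbols was lower with miR-4711-5p than in NC-1.

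The 12 enzymes that fell against Parent with miR-4711-5p had log2 fold changes from -0.18 to -0.42. For 7 enzymes the level was lower than in Parent in both transfected groups. These were *GPI*, which converts glucose 6-phosphate to fructose 6-phosphate, the phosphofructokinase *PFKL*, the aldolase *ALDOA*, the triose phosphate isomerase *TPI1*, *GAPDH*, the enolase *ENO1* and the lactate dehydrogenase *LDHA*. *GAPDH*, widely used as a reference gene, was at 5079 and 4991 FPKM in Parent, 4199 and 4244 FPKM in NC-1, and 4236 and 4335 FPKM with miR-4711-5p. Parent lay above both transfected groups, which overlapped, and the log2 fold changes against Parent were -0.23 with miR-4711-5p and -0.25 with NC-1 (limma adjusted p = 0.00215 and 0.004). Without a filter on low values these calls were lost (adjusted p = 0.0925 and 0.104). miR-4711-5p and NC-1 differed by 0.02 ± 0.04 for *GAPDH* (adjusted p = 0.667). *TPI1* was lower than in Parent by log2 fold changes of -0.23 with miR-4711-5p and -0.25 with NC-1, and *GPI* by -0.37 and -0.26. The transfected groups differed by 0.01 for *TPI1* and -0.11 for *GPI*, with no call.

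Abundant genes as a whole were lower against Parent, so the enzymes are set beside genes of like level. Among the 367 genes averaging at least 200 FPKM, the median log2 fold change against Parent was -0.20 with miR-4711-5p and -0.12 with NC-1. The median between the transfected groups was -0.07. Against Parent, 64% of these genes were called lower with miR-4711-5p and 38.1% with NC-1. The 9 enzymes in that range had medians of -0.23, -0.23 and 0.01. Among 5392 genes averaging 1 to 10 FPKM, the first of these medians was 0.06. The part of this dependence on level in the falls of the enzymes was not tested.

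**Figure D3:**
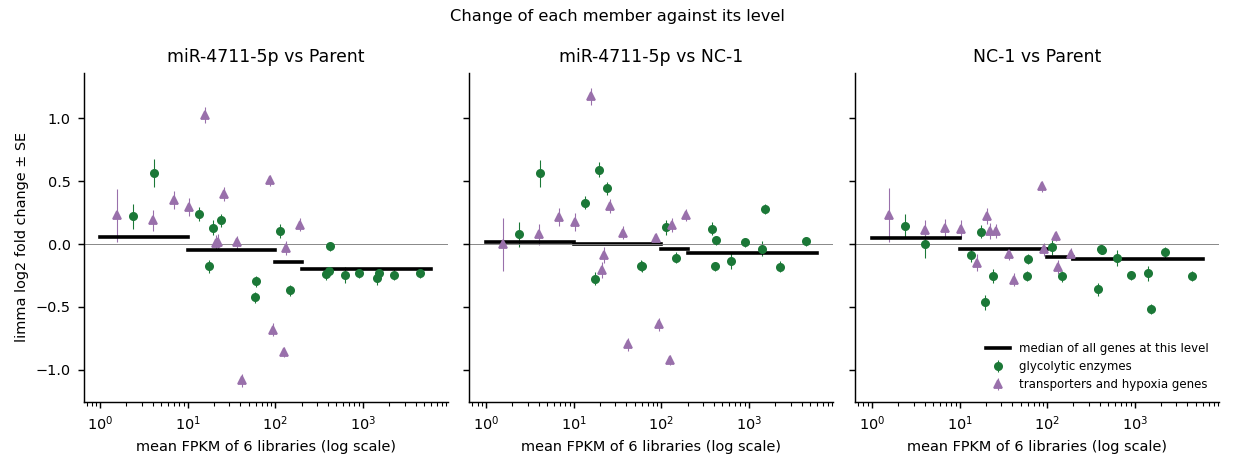
limma log2 fold change ± SE of the 34 tested members against their mean FPKM on a log axis, for each comparison (circles, enzymes; triangles, transporters and hypoxia genes; black lines, median of all tested genes at that level). In the highest range the line is at -0.20 for miR-4711-5p against Parent and at -0.12 for NC-1 against Parent, while the median of the 9 enzymes there is -0.23 in both, with *ENO1* at -0.51 in the latter, and *SLC2A1*, *NDRG1*, *DDIT4* and *ADM* lie far from the line with miR-4711-5p.

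*ENO1* differed between all 3 groups. It was at 1834 and 1762 FPKM in Parent, 1273 and 1243 FPKM in NC-1, and 1514 and 1544 FPKM with miR-4711-5p, with no overlap. The log2 fold changes were -0.51 for NC-1 against Parent (limma adjusted p = 0.000568), -0.23 for miR-4711-5p against Parent (adjusted p = 0.00313) and 0.28 for miR-4711-5p against NC-1 (adjusted p = 0.00152). After rescaling to a common total the fall against Parent was no longer called (adjusted p = 0.0545).

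*HK2*, the inducible hexokinase that traps glucose in the cell, was at 20.8 and 20.5 FPKM in Parent, 15.4 and 14.1 FPKM in NC-1, and 23.3 and 22.1 FPKM with miR-4711-5p. NC-1 was lowest (-0.46 against Parent, limma adjusted p = 0.00298), and miR-4711-5p was above NC-1 by 0.59 ± 0.06 (adjusted p = 0.000351). Against Parent *HK2* differed by 0.13 ± 0.06 (adjusted p = 0.121, and 0.0116 after rescaling to a common total). The muscle-type phosphofructokinase *PFKM* was at 24.6 and 23.9 FPKM in Parent, 19.9 and 20.4 FPKM in NC-1, and 26.8 and 28.8 FPKM with miR-4711-5p. *PFKM* rose against NC-1 by 0.44 ± 0.05 (adjusted p = 0.000825). It rose against Parent by 0.19 (adjusted p = 0.0271, and up to 0.162 without either Parent library or the second miR-4711-5p library). It was lower in NC-1 than in Parent (-0.25, adjusted p = 0.0153, and up to 0.078 without the first Parent or the first NC-1 library).

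The enzymes higher with miR-4711-5p than in both controls were *PFKM*, *PFKFB3* and *ENO2*. *ENO2*, the neuronal enolase, was at 2.98 and 3.81 FPKM in Parent, 3.14 and 3.63 FPKM in NC-1, and 5.54 and 5.38 FPKM with miR-4711-5p. Parent and NC-1 overlapped fully, and both miR-4711-5p libraries lay above them (log2 fold change 0.56 ± 0.11 against each, limma adjusted p = 0.00603 and 0.00662). *PFKFB3*, which makes the activator fructose 2,6-bisphosphate, was at 13.2 and 12.9 FPKM in Parent, 12 and 12.4 FPKM in NC-1, and 15.3 and 15.8 FPKM with miR-4711-5p (0.24 and 0.33, adjusted p = 0.01 and 0.00278). Without the second miR-4711-5p library the *PFKFB3* call against Parent was lost (adjusted p = 0.0684). *PFKFB4*, its relative, was at 2.21 and 1.99 FPKM, 2.44 and 2.41 FPKM, and 2.79 and 2.44 FPKM in the same order and was not called.

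The enzymes lower with miR-4711-5p than in both controls were *HK1*, *PFKL*, *ALDOC*, *PGK1* and *PKM*. *PFKL*, the liver-type phosphofructokinase, was at 69.2 and 67.5 FPKM in Parent, 57.4 and 57 FPKM in NC-1, and 50.3 and 51.1 FPKM with miR-4711-5p, with the groups in that order and no overlap (-0.42 against Parent and -0.17 against NC-1, limma adjusted p = 0.000274 and 0.0161). *HK1*, the constitutive hexokinase, was at 66.1 and 67.3 FPKM, 61.4 and 61.2 FPKM, and 53.2 and 55 FPKM (-0.30 and -0.18, adjusted p = 0.00153 and 0.015). *PGK1*, which makes ATP from 1,3-bisphosphoglycerate, was between 374 and 379 FPKM with miR-4711-5p and between 419 and 440 FPKM in the controls (-0.22 and -0.18). *PKM*, pyruvate kinase, was between 2019 and 2044 FPKM with miR-4711-5p and between 2227 and 2422 FPKM in the controls (-0.24 and -0.18). Against NC-1, leaving out 1 library ended the calls of *HK1* (adjusted p up to 0.103, without the first NC-1 or the first miR-4711-5p library), *PFKL* and *PKM* (up to 0.0975 and 0.0885, without the first NC-1 or either miR-4711-5p library) and *PGK1* (0.0685, without the first miR-4711-5p library). The calls of *PGK1* and *PKM* against Parent were lost after rescaling to a common total (adjusted p = 0.108 and 0.0683).

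With miR-4711-5p, all 4 aldolase and lactate dehydrogenase genes tested were called below Parent. *ALDOA* was at 1628 and 1578 FPKM in Parent, 1284 and 1451 FPKM in NC-1, and 1328 and 1330.1 FPKM with miR-4711-5p. It was called lower than Parent with miR-4711-5p (-0.27, limma adjusted p = 0.00944) and with NC-1 (-0.23, adjusted p = 0.0277). *ALDOC*, the brain-type aldolase, was at 17.8 and 17.5 FPKM, 18.7 and 19.2 FPKM, and 15.3 and 15.7 FPKM in the same order, and fell with miR-4711-5p against Parent (-0.18, adjusted p = 0.0252) and NC-1 (-0.27, adjusted p = 0.00466). *LDHA*, the lactate dehydrogenase induced by HIF, was at 425 and 440 FPKM in Parent, 350.4 and 323 FPKM in NC-1, and 365 and 368 FPKM with miR-4711-5p, below Parent in both transfected groups (-0.24 and -0.36). *LDHB* was at 681 and 685 FPKM, 674 and 592 FPKM, and 565 and 588 FPKM, with NC-1 and miR-4711-5p in separate but adjacent ranges, and was called only with miR-4711-5p against Parent (-0.24, adjusted p = 0.0175).

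Several of these calls rest on single libraries. Against Parent with miR-4711-5p, *ALDOA* lost its call without the first Parent library or either miR-4711-5p library (limma adjusted p up to 0.0664), *ALDOC* and *LDHB* without any 1 of the Parent or miR-4711-5p libraries (up to 0.135 and 0.109), and *LDHA* without the first miR-4711-5p library (0.0515). *LDHB* was called against NC-1 without the second NC-1 library (0.0148) and *LDHA* against NC-1 without the first (0.0307). *GPI* was also called against NC-1 without the first NC-1 library (0.0476). *LDHB* was called in NC-1 against Parent without the first NC-1 library (0.039), and the *ALDOA* call between these groups was lost without any library except the second NC-1 library (up to 0.142). Of 15 calls of enzymes against Parent 9 held with each library left out, as did 6 of 10 against NC-1 and 7 of 9 between NC-1 and Parent. For the other members it was 6 of 9, 5 of 8 and 1 of 4.

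*PFKP*, the platelet-type phosphofructokinase, was at 117 and 107 FPKM in Parent, 110 FPKM in each NC-1 library, and 124 and 117 FPKM with miR-4711-5p, with overlapping groups and no call. *PGAM1*, phosphoglycerate mutase, stayed between 411 and 429 FPKM and was not called. The scale and the filter changed further calls. After rescaling to a common total, miR-4711-5p was called above Parent for *PFKP*, *PGAM1*, *PFKFB4* and *PDK1* (limma adjusted p = 0.00992, 0.0202, 0.0339 and 0.025), and above NC-1 for *PFKP*, *LDHA*, *SLC16A3* and *KDM3A* (0.0314, 0.0245, 0.0171 and 0.039). *ALDOC* was then called higher in NC-1 than in Parent (0.036). The same rescaling ended the calls against Parent of *ALDOA*, *ALDOC*, *LDHA* and *LDHB* (0.0959, 0.482, 0.139 and 0.191), those against NC-1 of *HK1*, *PFKL* and *BNIP3L* (0.0521, 0.0529 and 0.103), and those between NC-1 and Parent of *ALDOA* and *SLC16A3* (0.0945 and 0.192). Without a filter on low values, the calls against Parent of *ALDOA*, *LDHB* and *HIF1A* were lost (0.0537, 0.0631 and 0.064), as were those against NC-1 of *PKM*, *BNIP3L* and *EGLN3* (0.116, 0.0655 and 0.101) and those between NC-1 and Parent of *ALDOA*, *SLC16A3* and *BNIP3L* (0.114, 0.0869 and 0.079).

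Ratios of related members within a library do not depend on its scale, and 9 pairs had both genes past the filter. With 2 libraries against 2, an exact permutation test cannot go below p = 0.333, so the ratios are described with no test. The log2 ratio of *PFKM* to *PFKL* was -1.49 and -1.50 in Parent, -1.53 and -1.48 in NC-1, and -0.91 and -0.83 with miR-4711-5p. Parent and NC-1 overlapped, and both miR-4711-5p libraries were higher, by a mean difference of 0.63 against Parent and 0.64 against NC-1. The ratio of *HK2* to *HK1* was -1.67 and -1.71 in Parent, -2.0 and -2.12 in NC-1, and -1.19 and -1.32 with miR-4711-5p, so that the groups lay in 3 separate ranges. The ratio of *ENO2* to *ENO1* was -9.27 and -8.85 in Parent, -8.67 and -8.42 in NC-1, and -8.10 and -8.16 with miR-4711-5p, where miR-4711-5p was also highest.

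For *PFKP* to *PFKL* the log2 ratio was 0.76 and 0.66 in Parent, 0.94 in each NC-1 library, and 1.30 and 1.19 with miR-4711-5p, in 3 ranges that did not overlap. For *P4HA2* to *P4HA1* it was -0.08 and -0.10, 0.06 and -0.24, and -0.48 and -0.50, lowest with miR-4711-5p. For *LDHB* to *LDHA* it was 0.68 and 0.64, 0.94 and 0.87, and 0.63 and 0.68, with NC-1 above the other groups, which overlapped. For *ALDOC* to *ALDOA* it was -6.52 and -6.50, -6.10 and -6.24, and -6.44 and -6.41, and for *PFKFB4* to *PFKFB3* it was -2.57 and -2.70, -2.29 and -2.36, and -2.46 and -2.69. Both of these ratios were highest in NC-1. For *SLC16A3* to *SLC16A1* it was 2.0 and 1.84 in Parent, 1.80 and 1.83 in NC-1, and 1.87 and 1.88 with miR-4711-5p, which lay within the range of Parent.

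**Figure D4:**
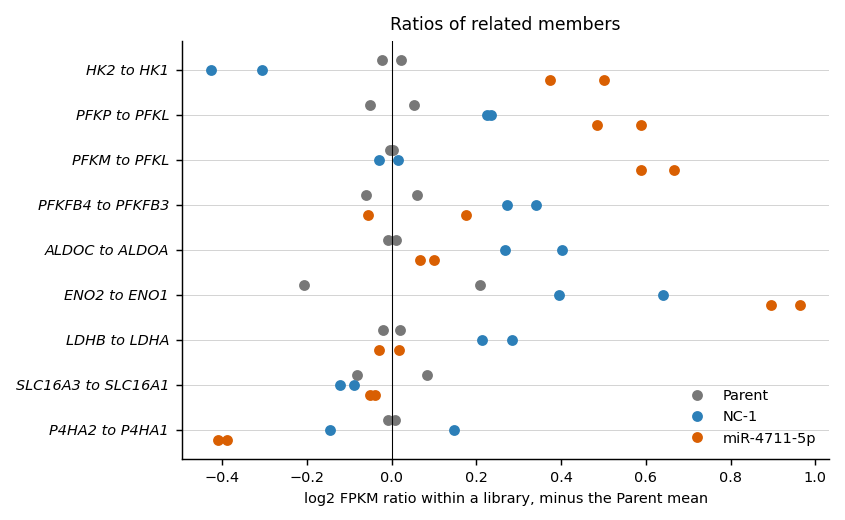
log2 ratio of the FPKM of 2 related members within each library, minus the mean ratio of the Parent libraries (points, libraries). *PFKM* to *PFKL*, *HK2* to *HK1* and *ENO2* to *ENO1* are highest in both miR-4711-5p libraries, and *LDHB* to *LDHA* is highest in NC-1.

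The same comparisons were made for 7 lists of related genes. Their counts stand beside the shares of all genes tested. With miR-4711-5p, 18.7% rose and 24.7% fell against Parent, and 18.4% rose and 21.2% fell against NC-1. In the HIF machinery 13 of 15 genes were tested, and with miR-4711-5p 2 rose and 4 fell against Parent, and 2 rose and 3 fell against NC-1. *HIF1AN*, the asparaginyl hydroxylase that blocks HIF activity, fell by a log2 fold change of -0.44 against Parent and -0.61 against NC-1 (limma adjusted p = 0.00145 and 0.000395). *EPAS1*, which encodes HIF-2 alpha, gave -0.29 and -0.23. *EGLN1*, the main HIF prolyl hydroxylase, gave 0.28 and 0.36. The calls of *EGLN1* against both controls and of *EPAS1* against NC-1 were lost on leaving out 1 library, with adjusted p up to 0.28, 0.137 and 0.0719. For *EGLN1* against Parent this was any library but the second miR-4711-5p library, for *EGLN1* against NC-1 the second NC-1 or the first miR-4711-5p library, and for *EPAS1* the second NC-1 library or either miR-4711-5p library.

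Of 30 further HIF targets tested, 8 rose and 2 fell with miR-4711-5p against Parent, and 3 rose and 4 fell against NC-1, beside the shares of all genes given above (18.7% and 24.7%, and 18.4% and 21.2%). Between NC-1 and Parent 8 rose and 2 fell, where 12.1% of all genes were higher and 15.1% lower. *CA12*, a membrane carbonic anhydrase, was at 9.67 and 10.2 FPKM in Parent, 7.41 and 7.14 FPKM in NC-1, and 2.42 and 2.29 FPKM with miR-4711-5p, and its log2 fold changes were -1.71 and -1.30 (limma adjusted p = 5.77e-06 and 1.83e-05). *HMOX1*, heme oxygenase 1, rose by 0.88 and 0.84, and *TMEM45A* by 0.72 and 0.41. *TMEM45A* was also called higher in NC-1 than in Parent (0.32, limma adjusted p = 0.0061), and *HMOX1* was not (0.04). Of the 30, 3 were higher against both controls and 1, *CA12*, was lower against both. The share of all genes called in the same direction against both controls was not counted.

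In the neighbouring pathways, the pentose phosphate pathway branches from glucose 6-phosphate and makes NADPH. Of its 7 genes, 1 was higher and 5 lower against Parent, and 5 were lower against NC-1. Of all genes, 18.7% were higher and 24.7% lower against Parent, and 18.4% and 21.2% against NC-1. *PGD* had log2 fold changes of -0.64 against Parent and -0.61 against NC-1 and fell, as did *TALDO1* (-0.47 and -0.39). These 2 genes averaged 106 and 161 FPKM. Of the 468 genes averaging 100 to 200 FPKM, 49.1% fell against Parent and 32.1% against NC-1. The part of level in these falls was not tested. Of 12 genes for the entry of pyruvate into mitochondria, 1 rose and 7 fell against Parent, and 1 rose and 4 fell against NC-1. *PDP1*, the phosphatase that activates pyruvate dehydrogenase, rose (0.73 and 0.49), the carrier subunit *MPC1* fell (-0.80 and -0.48) and the kinase *PDK3* fell (-0.31 and -0.44). *PDP1* was also called higher in NC-1 than in Parent (0.24, limma adjusted p = 0.0239). The *MPC1* call against NC-1 was lost without the first NC-1 or the second miR-4711-5p library (adjusted p up to 0.106), and the *PDK3* calls without any 1 of the Parent or miR-4711-5p libraries against Parent (up to 0.163) and without the first NC-1 or either miR-4711-5p library against NC-1 (up to 0.0747).

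Of 8 further isozymes and regulators of glycolysis tested, 4 rose and 1 fell in each comparison of miR-4711-5p. The shares of all genes that rose and fell were 18.7% and 24.7% against Parent, and 18.4% and 21.2% against NC-1. *HKDC1*, a hexokinase relative, fell (-0.43 and -0.86), and *ENO3*, the muscle enolase, and *ADPGK*, an ADP-dependent glucokinase, rose (0.42 and 0.42, and 0.33 and 0.42). The calls of *HKDC1* against Parent (without the second Parent or the first miR-4711-5p library, limma adjusted p up to 0.0814) and of *ENO3* against both controls (without either Parent library or the first miR-4711-5p library, up to 0.105, and without the first NC-1 or the first miR-4711-5p library, up to 0.107) were lost. Of 4 genes of gluconeogenesis tested, *PC* (-0.45 and -0.52) and *PCK2* (-0.37 and -0.21) fell against both controls, the latter not against NC-1 without the second NC-1 library or either miR-4711-5p library (adjusted p up to 0.155). Of 10 genes of glycogen metabolism, 4 fell against Parent and 2 against NC-1. These 2 were *PYGB* (-0.28 and -0.22) and *PGM1* (-0.17 and -0.15). Against NC-1, *PYGB* lost its call without the first NC-1 or the first miR-4711-5p library (adjusted p up to 0.0891) and *PGM1* without any 1 of the NC-1 or miR-4711-5p libraries (up to 0.165), and *PGM1* also against Parent without the first Parent or either miR-4711-5p library (up to 0.129).

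The core ACGTG or GCGTG was searched on both strands of RefSeq promoters, 250 bases before to 50 after a start (GRCh38.p14, a different build from that of the FPKM), and CACGTG counts as a core on each strand. It was in 66.7% of 60 promoters of the 32 members matched by symbol, in 61% of the promoters of tested genes and in 48.4% of all promoters. By list it was in 26 of 40 promoters of enzymes, 4 of 6 of transporters and 10 of 14 of hypoxia genes. Stretches of 60 bases are shown for a member that fell with miR-4711-5p and for 2 that rose, with a core in capitals, all on the plus strand. The *DDIT4* promoter held 4 cores, of which the stretch shows only 1, and those of *ADM* and *ENO2* held 1 each. They lie at chr10:72273677-72273736 for *DDIT4*, chr11:10304944-10305003 for *ADM* and chr12:6914434-6914493 for *ENO2*.
DDIT4: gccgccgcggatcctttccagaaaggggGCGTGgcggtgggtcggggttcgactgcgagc
ADM: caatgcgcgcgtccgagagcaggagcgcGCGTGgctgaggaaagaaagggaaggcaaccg
ENO2: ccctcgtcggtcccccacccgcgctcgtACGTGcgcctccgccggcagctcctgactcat

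These stretches were taken only from promoters that hold a core, so they cannot relate the core to the direction of change. At least 1 promoter held a core in 29 of the 32 matched members. Some members have several promoters, which raises this count, and the share of all genes counted in this way was not computed. It cannot be set beside the shares of promoters above. No promoter was matched for *NDRG1*, *VEGFA*, *BNIP3L*, *SLC2A3* or *SLC16A1*. In *SLC2A1* the window held only 1 core, 25 bases after the start. Distal elements were outside these windows.

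The labelled cell type was checked by marker genes. The 5 epithelial markers were between 91.6 and 1842 FPKM in all libraries. *KRT19*, the ductal keratin, fell with miR-4711-5p (-0.85 against Parent and -0.50 against NC-1, limma adjusted p = 2.58e-05 and 0.000337). *KRT18* rose against both (0.19 and 0.33), *KRT8* and *EPCAM* rose against NC-1 (0.25 and 0.24) and *KRT7* fell against NC-1 (-0.17), with no call of these 3 against Parent. The sum of the 5 was 5756 to 6133 FPKM in Parent, 5138 to 5425 in NC-1 and 5164 to 5219 with miR-4711-5p. The summed FPKM was at most 5.1 over 5 acinar markers, where *PRSS1* alone passed the filter and 3 genes were listed at 0 in all libraries, and at most 0.0504 over 4 endocrine markers. It was at most 2.45 over 5 fibroblast markers, 0.257 over 4 blood cell markers and 3.53 over 4 endothelial markers, the last from *CDH5* in NC-1. The sums of acinar markers were 0.73 to 1.57 FPKM in Parent, 2.62 to 2.73 in NC-1 and 3.18 to 5.1 with miR-4711-5p, and their part in the results was not tested.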

How the data were processed

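RNA-seq of 6 BxPC-3 libraries was analysed, in 3 groups of 2 (Parent, NC-1, miR-4711-5p), grouped by the labels. The authors prepared stranded mRNA libraries, sequenced single-end reads, aligned them (TopHat, Bowtie2, SAMtools) against hg19, and computed the deposited FPKM per gene symbol with Cuffnorm. The gene annotation and strand option are not given in the sources used here. A count model was not applied, since FPKM are not counts. The control is labelled NC-1, and which of the control RNAs in the study's methods it was is not stated.

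The 12040 genes averaging 1 FPKM or more were tested on log2(FPKM + 1) with limma 3.58.1 in R 4.3.3 (lmFit, contrasts.fit, eBayes with a trend, 3 residual and 4.15 prior degrees of freedom). All 3 groups entered 1 fit, two-sided, with Benjamini-Hochberg adjustment at 0.05. Errors are SE from limma or SD over libraries. Seed sites were searched in GENCODE v44 3′ UTRs lifted to GRCh37, the build of hg19, with pysam 0.24.0. Tables were made with Python 3.11.15, numpy 2.4.6 and pandas 2.3.3, and figures with matplotlib 3.10.9. The scripts for limma were first tested on simulated data with known changes.

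Same-numbered libraries of different groups did not deviate together (correlations of 0.06, 0.00 and -0.01), so the numbers were not taken as pairs. The members and gene lists were chosen with earlier results of these data known. All 37 members are accounted for. Values in every library are given for members called in the same direction against both controls with a log2 fold change of at least 0.4 in size against each, for related pairs past the filter, and for *GAPDH*, *HIF1A* and *SLC2A1*. Values by library of *VEGFA*, *CA9* and *CA12*, and the changes of single epithelial markers, were chosen after their values were seen. From each related list at most 3 genes called against both controls are named, and 1 gene of these lists is not reported here. Many enzyme genes have pseudogenes, and reads shared with them were not measured. The alternatives tried were a pseudocount of 0.1, no filter, a mean of at least 5 FPKM, median-of-ratios rescaling, a common total, the replicate number as a block, only the groups compared, and each library left out. The median-of-ratios factors were between 1.00584 and 1.00715. That setting therefore left the values nearly as deposited and could hardly change a call.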

Additional observations from a re-analysis of the deposited data

How the results depend on the processing

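With 2 libraries a group and unknown read depth, changes near the spread between libraries were not detectable. Rescaling to a common total was chosen after seeing the data. It gave 7 enzymes higher and 5 lower against Parent, 3 lower against NC-1, and 1 higher between NC-1 and Parent, with median log2 fold changes of -0.093, 0.076 and -0.035 in that order. The other members then had medians of 0.29, 0.12 and 0.18, and 1 was lower between NC-1 and Parent. By construction this scale raises values in libraries of lower total. Which scale is nearer to the RNA content of the cells was not tested. This scale also turned the sign of uncalled differences between NC-1 and Parent to 0.057 (*PFKP*), 0.045 (*PGK1*), 0.039 (*PGAM1*), 0.021 (*PKM*), 0.00696 (*SLC16A1*), 0.0068 (*HIF1A*) and 0.042 (*DDIT4*), between miR-4711-5p and Parent to 0.12 (*PGAM1*) and 0.11 (*SLC16A3*), and between miR-4711-5p and NC-1 to 0.016 (*ALDOA*) and 0.031 (*ANKRD37*).

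With a mean of at least 5 FPKM, the median between NC-1 and Parent was -0.23 for enzymes and 0.064 for the other members, whose median against Parent with miR-4711-5p was 0.016. Fewer genes were tested there. Between NC-1 and Parent, 1 of the other members was higher and 1 lower without a filter and with only the groups compared. With the replicate block 1 was higher, and the block changed the calls of 2 members (*SLC16A3* with miR-4711-5p against NC-1 and *BNIP3L* in NC-1 against Parent) and no other call of a member. Same-numbered libraries did not deviate together, and the labels do not say whether the numbers mark pairs. The cause was not tested. A pseudocount of 0.1 turned *ANKRD37* between miR-4711-5p and NC-1 to 0.015, and a pseudocount of 1 turned the difference in the *PFKFB4* to *PFKFB3* log2 ratio against Parent to -0.018. Of the 5 members described with the largest changes against both controls, each kept its call under every setting in which it was tested, and *ENO2* was not tested with a mean of at least 5 FPKM.

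With each library left out in turn, the enzymes higher against Parent numbered 1 to 3 and their median ran from -0.24 to -0.21. The enzymes lower against NC-1 numbered 1 to 6, and their median between NC-1 and Parent ran from -0.14 to -0.11. The other members higher against NC-1 numbered 2 to 5, and between NC-1 and Parent 1 to 2 were higher and 0 to 2 lower. Their median ran from 0.081 to 0.19 against Parent and from 0.039 to 0.10 between NC-1 and Parent. Uncalled log2 fold changes that turned sign ran from -0.095 to 0.041 (*PFKP*), -0.14 to 0.14 (*ENO2*), -0.040 to 0.50 (*ANKRD37*) and -0.089 to 0.0030 (*DDIT4*) between NC-1 and Parent. Against Parent with miR-4711-5p they ran from -0.022 to 0.047 (*SLC16A1*), -0.096 to 0.031 (*SLC16A3*), -0.057 to 0.081 (*BNIP3L*) and -0.0061 to 0.039 (*P4HA2*). Against NC-1 they ran from -0.13 to 0.050 (*ALDOA*) and -0.27 to 0.27 (*ANKRD37*).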
